A study of Mus musculus with 10 samples.

Results

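The Id genes and a set of other BMP pathway genes, namely ligands, a receptor, inhibitory Smads and a further target, were followed in cortical cells that had lost Cdkn1c. The genes are Id1, Id2, Id3, Id4, Bmp4, Bmp7, Bmpr1a, Smad6, Smad7 and Msx1, which were picked by symbol and make up 10 of the 53379 genes counted. Gene expression was measured by RNA-seq in the Emx1+ lineage of the neocortex at embryonic day 16 (E16), in 3 cKO-Cdkn1c-MADM-7 libraries (cKO) and 7 control MADM-7 libraries. A library held 400 cells sorted by FACS from 1 embryo, so the replicates are embryos. MADM (Mosaic Analysis with Double Markers) labels single cells green or red through recombination between homologous chromosomes, here Chr. 7, which carries Cdkn1c. Cdkn1c encodes the cyclin-dependent kinase inhibitor p57KIP2. The comparison asked which transcripts differ once this locus is lost from the lineage.

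The cKO embryos carried the Cdkn1c-flox allele on both of their MADM-7 chromosomes, GT and TG, inherited from both parents, together with Emx1 Cre/+. Control embryos were MADM-7 GT/TG;Emx1 Cre/+ without the floxed allele. Both groups therefore shared the Chr. 7 MADM cassettes and the Emx1 Cre driver, and both came from a mixed C57BL/6J, CD1 background, which the labels give as CD1. Emx1 Cre acts in radial glia progenitor cells of the dorsal telencephalon and in the cells that descend from them. Cells with GFP, tdT or both were pooled in each sort, and by the MADM scheme the cells of a single colour in both groups can hold 2 maternal or 2 paternal copies of Chr. 7. Each library is thus a mixture of progenitors and neurons, and fewer cells of a type cannot be told apart from less RNA per cell.

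BMPs are secreted ligands that bind pairs of type I and type II receptors. The receptors phosphorylate Smad1, Smad5 and Smad9, which join Smad4 and enter the nucleus. Id genes and Msx1 are classical direct targets of this pathway, and so are Smad6 and Smad7, whose products block it in a feedback loop. Id proteins have a helix-loop-helix domain but no basic region, so that they hold E proteins and other helix-loop-helix factors away from DNA. In the embryonic cortex Id1, Id3 and Id4 are known mainly from progenitors near the ventricle, and Id2 is known from neurons of the cortical plate as well.

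Promoter sequence was searched for 4 DNA motifs, of which GGCGCC and GTCTAGAC are bound by Smads and the others by factors of other classes. RefSeq windows on GRCm38.p6, from 250 bases before to 50 bases after the start of transcription, were at hand for 7 of the 10 genes (Id2, Id3, Id4, Bmp4, Bmpr1a, Smad6 and Msx1). GGCGCC, the GC-rich element bound by the BMP Smads, stood in the windows of Id2, Id4 and Bmpr1a, that is in 3 of 7 windows, and in 11.9% of all 32851 promoter windows. GTCTAGAC, the palindromic Smad box, was found in the Smad6 window and in 0.213% of all windows. CACGTG, an E-box, was found in the Bmp4 window and in 7.15% of all windows. TGACGTCA, the cAMP response element, was in none of the 7 and in 1.79% of all windows. The 4 motifs read the same on both strands, and no window of the 7 genes held more than 1 kind of them, so none overlapped another. The stretches below are given 5′ to 3′ on the strand of the gene, with the motif in capitals. They are shown because they carry the matches.
Id2 promoter, chr12:25096283-25096342, minus strand: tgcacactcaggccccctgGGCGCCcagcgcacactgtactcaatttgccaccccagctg
Id4 promoter, chr13:48260941-48261000, plus strand: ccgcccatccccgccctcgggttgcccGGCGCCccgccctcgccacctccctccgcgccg
Bmpr1a promoter, chr14:34502712-34502771, minus strand: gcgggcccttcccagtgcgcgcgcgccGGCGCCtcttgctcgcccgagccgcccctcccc
Smad6 promoter, chr9:64022056-64022085, minus strand: agcgccgcggagccgccaaagtGTCTAGAC
Bmp4 promoter, chr14:46390852-46390881, minus strand: gtgcatgctttctagtacctcttgCACGTG

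The motif starts 231 bases before the transcription start in Id2, 148 in Id4, 198 in Bmpr1a, 4 in Smad6 and 188 in Bmp4. The stretches of Id4 and Bmp4 lie upstream of the genes as annotated, and that of Smad6 reaches 4 bases into its first exon. Those of Id2 and Bmpr1a lie inside the annotated gene span but in no exon. The windows of Id3 and Msx1 held none of the 4 motifs, and a match or its lack is a description of these letters, not of binding.

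Between 1738220 and 3362487 reads per library fell on genes (2417184 to 2998916 in cKO). Cdkn1c, the deleted gene, had 32, 10 and 18 reads in cKO replicates 1 to 3 and 116 to 369 reads in controls, a log2 fold change of -3.66 (SE 0.38, edgeR quasi-likelihood test, adjusted p = 3.68e-06), so the labels held for all 10 libraries. Markers of radial glia, the progenitors of this lineage, summed to 1713 to 3171 CPM (read counts scaled to the total of the library) in cKO and 1837 to 3021 CPM in controls, and 0 of 11 tested differed. By the share of uniquely aligned reads outside genes the libraries fell into 2 sets, with 1 cKO (replicate 3) and 4 controls (replicates 1, 2, 6 and 7) at 5.47% to 8.64% and the other 2 cKO and 3 controls at 12.8% to 16.7%. All 10 libraries carry the same run name in their labels, so no sequencing batch could be told from them.

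Id2 fell and Id3 rose in cKO, each with no overlap between the 2 groups, while Id1 and Id4 overlapped between genotypes. Id2 had 1761 to 3936 reads and Id3 had 130 to 627 reads per library. Of the 10 genes, 8 passed the filter on low counts (10 reads or more per library on average), and 2 of these 8 passed an adjusted p of 0.05, 1 in each direction. Over all 11551 genes tested 3.15% passed, 2.27% higher and 0.883% lower in cKO, and 6.00% had groups that did not overlap. The median log2 fold change of the 8 genes was 0.41 and that of the 4 Id genes 0.34, beside 0.01 over all genes tested. Of the 8, Bmp7 and Smad6 averaged under 10 reads in controls, with 53 and 69 reads over the 7 libraries. They passed the filter only through their cKO counts, so the median of 0.41 depends in part on the filter. CPM values below are scaled with TMM factors, and a fold change is always cKO over control.

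Id2 (ENSMUSG00000020644.9, GRCm38 chr12:25093799-25097140, minus strand), the Id family member best known from young cortical neurons, was counted at 659, 821 and 747 CPM in cKO replicates 1 to 3. In control replicates 1 to 7 it stood at 1428, 1156, 1138, 1135, 1053, 1051 and 1268 CPM. The highest cKO library was below the lowest control. The mean was 743 ± 81.1 CPM (SD, n = 3) against 1175 ± 133 CPM (SD, n = 7), and the log2 fold change was -0.66 (SE 0.13, 95% interval -0.93 to -0.40, edgeR adjusted p = 0.00721). Id2 in cKO was thus at 63.1% of control, with an interval of the fold from 0.525 to 0.759. Within the libraries with few reads outside genes the difference of mean log2 CPM was -0.70, and within those with many it was -0.59.

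Id3 (ENSMUSG00000007872.3, chr4:136143497-136145755, plus strand), a progenitor-enriched family member and sensitive BMP target, was counted at 160, 247 and 155 CPM in cKO. Controls had 47.2, 120, 65.6, 92.7, 105, 62.2 and 71.5 CPM. Every cKO library was above the highest control, which was replicate 2. The mean was 188 ± 51.6 CPM (SD, n = 3) against 80.6 ± 25.9 CPM (SD, n = 7), a log2 fold change of 1.23 (SE 0.24, 95% interval 0.73 to 1.73, edgeR adjusted p = 0.00516) and a fold of 2.35 (interval 1.66 to 3.31). The difference of mean log2 CPM was 1.12 within the set of libraries with few reads outside genes and 1.20 within the other set. Without cKO replicate 2, the highest library, the log2 fold change was 0.98 (edgeR adjusted p = 0.0340).

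Id1 (ENSMUSG00000042745.9, chr2:152736251-152737410, plus strand), the other classical BMP-responsive member, had 43.5, 91.8 and 50.1 CPM in cKO. Its control values were 37.0, 42.1, 43.0, 51.2, 75.1, 21.6 and 28.5 CPM, so that cKO replicates 1 and 3 lay inside the control range and replicate 2 above it. The log2 fold change was 0.57 (SE 0.30, 95% interval -0.07 to 1.20, edgeR adjusted p = 0.372), and it was 0.17 without cKO replicate 2. The interval includes 0 and also overlaps that of Id3, so these libraries do not show whether Id1 differs between genotypes.

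Id4 (ENSMUSG00000021379.2, chr13:48261228-48266026, plus strand), a family member that can also bind the other Id proteins, had 50.3, 119 and 95.5 CPM in cKO. Controls ran from 37.0 to 174 CPM with a median of 68.6 CPM, a spread that took in all 3 cKO libraries. The log2 fold change was 0.11 (SE 0.39, 95% interval -0.70 to 0.93, edgeR adjusted p = 0.919), and leaving out cKO replicate 2 turned it to -0.17. Id4 shares its locus with A330033J07Rik and Gm49291 on the other strand. Reads over such a pair are dropped from the counts that ignore strand, which gave Id4 2247 reads in all, against 2487 when the counts of the 2 strands were added.

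**Figure D1:**
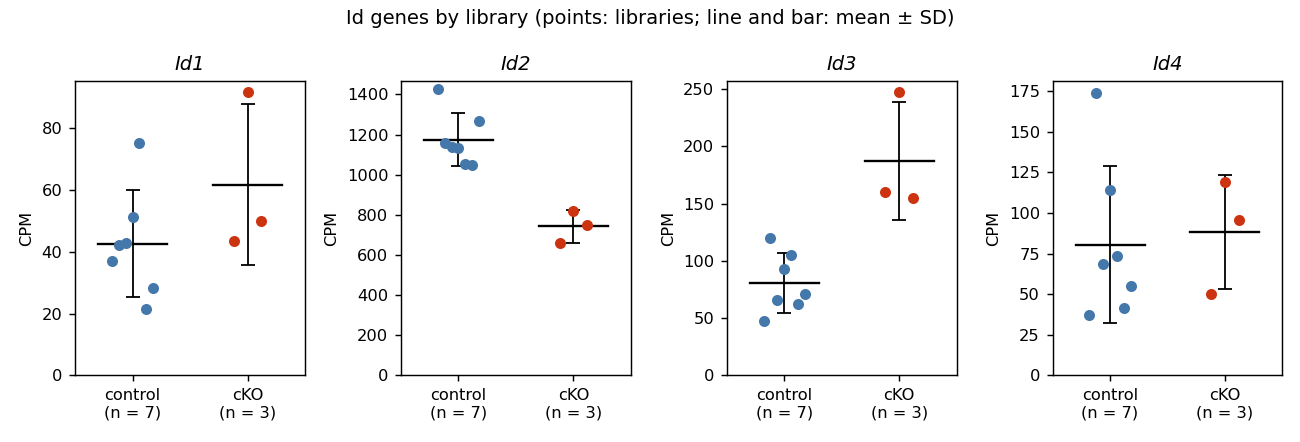
CPM of Id1, Id2, Id3 and Id4 (vertical axes, each from 0) in the 7 control and 3 cKO libraries, with 1 point per library and the mean ± SD as line and bar. Id2 in cKO (659 to 821 CPM) lies below all controls (1051 to 1428 CPM), Id3 in cKO (155 to 247 CPM) lies above all controls (47.2 to 120 CPM), and Id1 and Id4 overlap.

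The opposite shifts of Id2 and Id3 changed their balance within a library. There were 24.3, 30.1 and 20.8 Id3 reads per 100 Id2 reads in cKO replicates 1 to 3, and 3.30 to 10.4 in controls with a median of 5.92. On average it was 25.1 ± 4.69 (SD, n = 3) for cKO libraries against 7.02 ± 2.57 (SD, n = 7) for controls, with no overlap. This ratio follows from the values of Id2 and Id3 above and is no further test.

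**Figure D2:**
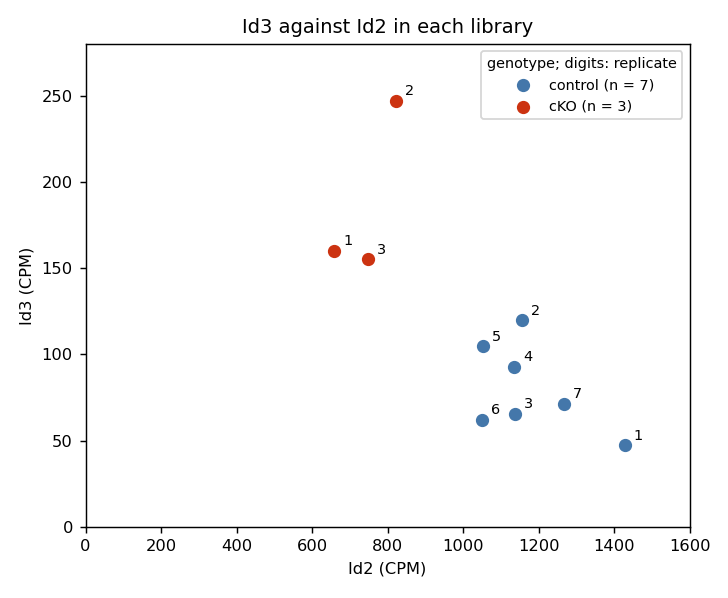
CPM of Id3 (vertical axis) against CPM of Id2 (horizontal axis), with 1 point per library, coloured by genotype and numbered by replicate. The 3 cKO libraries stand at the upper left (659 to 821 CPM of Id2, 155 to 247 CPM of Id3) and the 7 controls at the lower right (1051 to 1428 CPM of Id2, 47.2 to 120 CPM of Id3).

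Levels of different genes were set side by side per length, as CPM per kb of exon. In controls Id2 had a median of 467 CPM per kb (431 to 586), Id3 39.9 (26.3 to 66.9), Id1 36.3 (18.6 to 64.7) and Id4 17.8 (9.62 to 45.2). Id2 was apart from all others, while Id3, Id1 and Id4 overlapped their neighbours in this order. Bmpr1a followed with 5.56 CPM per kb (3.92 to 8.16) and Smad7 with 2.34 (1.58 to 3.73), and Id4, Bmpr1a and Smad7 did not overlap. Smad6 (median 0.906 CPM per kb), Bmp7 (0.732), Bmp4 (0) and Msx1 (0) overlapped their neighbours at the bottom of the order. Every Id gene was thus above the receptor, the ligands and the inhibitory Smads of this set in all 7 controls.

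Of the summed per-kb level of the 4 Id genes, Id2 made up 75.2% to 89.6% in controls and 57.6% to 66.5% in cKO. The share of Id3 was 4.03% to 10.8% in controls and 18.8% to 23.6% in cKO. The sum itself overlapped, with 410 to 585 CPM per kb in cKO and 495 to 654 CPM per kb in controls. Id2 thus remained the most abundant Id transcript in every library of both genotypes, and Id3 took up a larger share in cKO.

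**Figure D3:**
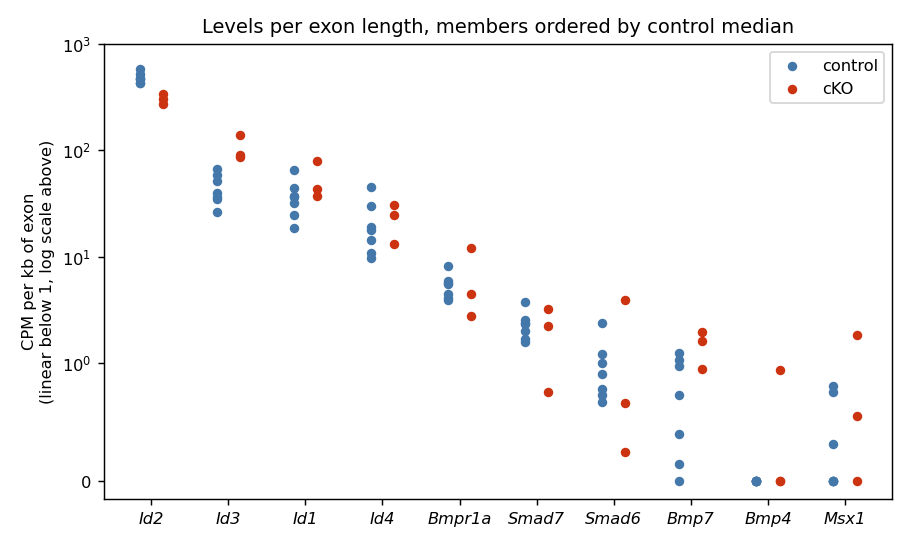
CPM per kb of exon (vertical axis, linear below 1 and logarithmic above) of the 10 genes, ordered by their control median, with 1 point per library. Id2 is highest in both genotypes, followed by Id3, Id1 and Id4, and Bmp4 is at 0 in all 7 controls.

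Among the genes outside the Id family, none of Bmp7, Bmpr1a, Smad6 and Smad7 passed the test, and Bmp4 and Msx1 had too few reads to be tested across genes. Bmp7 (chr2:172868012-172940321, minus strand), a secreted ligand, had 19, 20 and 9 reads in cKO, which is 6.41, 7.88 and 3.82 CPM. In controls it ran from 0 to 14 reads, or 0 to 4.99 CPM with a median of 2.94. Replicates 1 and 2 of cKO were above all controls and replicate 3 was inside their range. The log2 fold change was 1.14 (SE 0.54, 95% interval 0.02 to 2.27, edgeR adjusted p = 0.297). The unadjusted edgeR p of Bmp7 was 0.0473, and 16.4% of all genes tested had an unadjusted p under 0.05. Bmp7 had 53 reads over the 7 controls and 48 over the 3 cKO libraries. It thus reached the filter (mean 10.1 reads) only through the group where it was higher, and nothing is drawn from its fold change or p.

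Bmp4 (chr14:46383520-46390669, minus strand), the ligand of the dorsal midline and other signalling centres, had no read in 9 of 10 libraries. It had 5 reads (2.12 CPM) in cKO replicate 3 and 0 reads in the other 2 cKO and all 7 control libraries (exact permutation test, two-sided, p = 0.6). A count of 0 allows up to 3 reads, which is 0.883 to 1.75 CPM depending on the library. Bmp4 was thus not detectable in controls at this depth.

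Bmpr1a (chr14:34410734-34503341, minus strand), a type I receptor, had 17.5, 76.0 and 28.4 CPM in cKO. Controls ran from 24.9 to 51.8 CPM with a median of 35.3, so that cKO replicate 1 was below this range, replicate 2 above it and replicate 3 inside it. The log2 fold change was 0.25 (SE 0.34, 95% interval -0.47 to 0.98, edgeR adjusted p = 0.785), and it turned to -0.58 without cKO replicate 2.

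Smad6 (chr9:63953076-64022059, minus strand), an inhibitory Smad, had 37, 2 and 5 reads in cKO, which is 12.5, 0.788 and 2.12 CPM. Controls had 2.14 to 7.55 CPM with a median of 2.90. Its log2 fold change of 0.63 (SE 0.60, 95% interval -0.63 to 1.89, edgeR adjusted p = 0.671) rested on cKO replicate 1 and was -1.29 without it. Smad7 (chr18:75367529-75395935, plus strand), the inhibitory Smad shared with the TGF-β branch, had 10.1, 14.6 and 3.39 CPM in cKO and 7.13 to 16.9 CPM with a median of 10.6 in controls. It showed a log2 fold change of -0.09 (SE 0.39, 95% interval -0.91 to 0.73, edgeR adjusted p = 0.937), which was 0.27 without cKO replicate 3.

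Msx1 (chr5:37820485-37824583, minus strand), a homeobox gene and direct BMP target of the dorsal midline, had 17, 0 and 4 reads in cKO. In controls it had 7, 3 and 4 reads in replicates 2, 4 and 5 and 0 reads in the other 4. The mean CPM was 2.48 ± 2.95 (SD, n = 3) for cKO against 0.828 ± 1.14 (SD, n = 7) for controls (exact permutation test, two-sided, p = 0.35). Neither this p nor that of Bmp4 was adjusted, and 3 against 7 libraries cannot give a p below 0.0167.

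**Figure D4:**
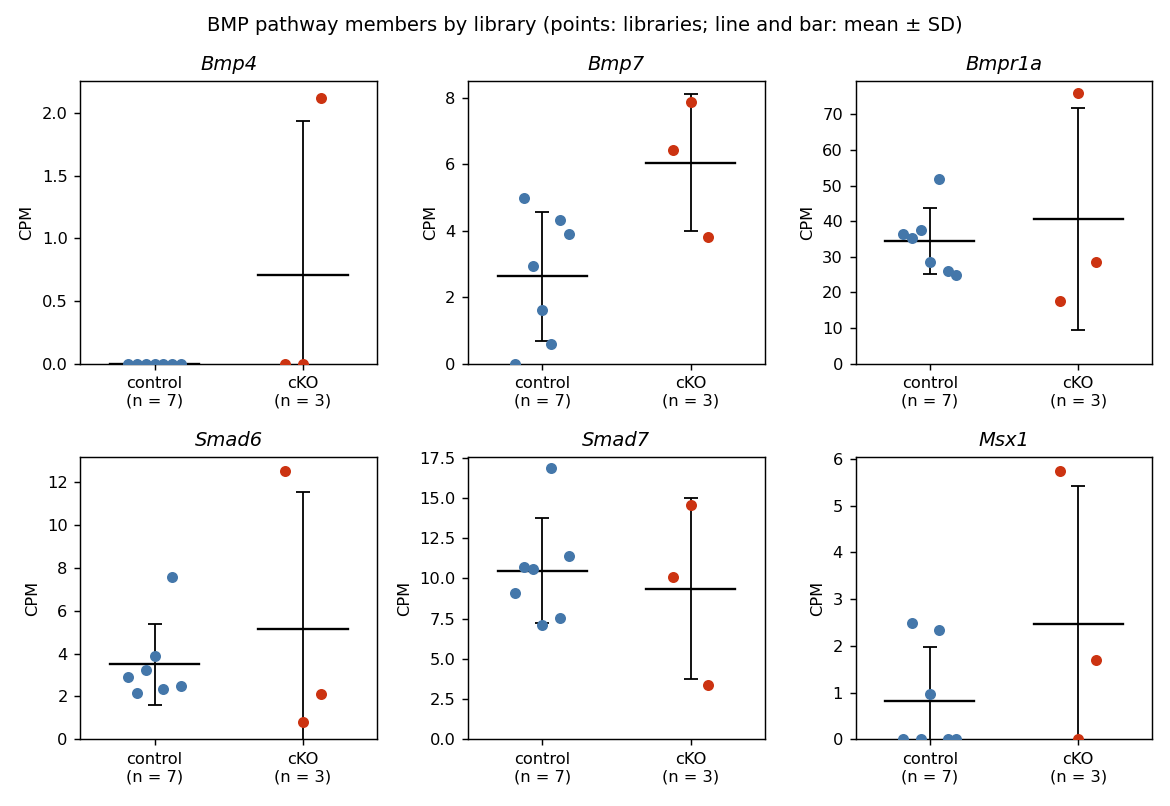
CPM of Bmp4, Bmp7, Bmpr1a, Smad6, Smad7 and Msx1 (vertical axes, each from 0) in the 7 control and 3 cKO libraries, with 1 point per library and the mean ± SD as line and bar, bars being clipped at 0. The 2 genotypes overlap in every gene, and single cKO libraries set the highest value of Bmpr1a (76.0 CPM), Smad6 (12.5 CPM) and Msx1 (5.73 CPM).

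For 3 of the 6 genes that did not pass, Id4, Bmpr1a and Smad7, the 95% interval of the log2 fold change lay within -1 to 1. For Id1, Bmp7 and Smad6 it reached past 1, so that a change to more than 2 times the control level lies inside these intervals.

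The rest of the pathway was taken from a list of 47 further genes, of which 32 could be tested. None of the 32 passed the adjusted p with edgeR, 3 had an unadjusted p under 0.05 (Tcf4, Tob2 and the antagonist Sostdc1), and DESeq2 called 2 of them, Tob2 and Tcf4. Over all genes tested 3.15% passed and 16.4% had an unadjusted p under 0.05, so these counts do not set the pathway apart. Their log2 fold changes had a median of 0.03, with 18 above and 14 below 0, beside 0.01 over all genes tested, and for 19 of the 32 the 95% interval lay within -1 to 1. Counts by role were 2 tested of 8 ligands, 5 of 7 receptors, 3 of 4 Smads, 10 of 13 extracellular antagonists, 8 of 8 intracellular modulators, 1 of 4 targets and 3 of 3 E proteins.

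Values by role follow, none of which passed the test. Smad1, the transducer with the most reads, had 96.1 ± 15.2 CPM in cKO and 97.7 ± 13.9 CPM in controls, a log2 fold change of -0.03 (SE 0.17, edgeR adjusted p = 0.954). Smad5, its close relative, showed 0.08 (SE 0.25) on the same scale. For the type II receptor Bmpr2 and the co-receptor Rgmb the log2 fold changes were 0.11 (SE 0.33) and -0.21 (SE 0.20), and for the ligands Gdf11 and Bmp3 they were 0.50 (SE 0.30) and 0.21 (SE 0.45). The antagonists Fstl1 and Twsg1 had -0.31 (SE 0.25) and -0.53 (SE 0.28), and the modulators Zeb2, a Smad-binding repressor, and Ppm1a, a phosphatase, had -0.35 (SE 0.19) and 0.14 (SE 0.18). Hey1, the tested target gene outside the Id family, stood at -0.14 (SE 0.25). The other 3 listed targets fell below the filter and were not tested. Of these, Atoh8 (62 reads in all) had 3.94 to 5.94 CPM in cKO and 0.36 to 2.91 CPM in controls, without overlap. Lmx1a and Msx2 overlapped between genotypes. These 3 targets were named after their values had been seen.

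The E proteins are the partners that Id proteins bind. Tcf4, by far the most abundant of them with 48129 reads in all, had 1309 to 1467 CPM in cKO and 1539 to 2281 CPM in controls, so that the groups did not overlap. Its log2 fold change of -0.50 (SE 0.13, edgeR adjusted p = 0.0512) missed the threshold. Tcf3 had a log2 fold change of 0.20 (SE 0.33) and Tcf12 one of 0.06 (SE 0.24). Apart from Tcf4, only Tob2 among the 32 had groups that did not overlap (2 of 32 in all, beside 6.00% over all genes tested), with 34.4 to 37.8 CPM in cKO and 15.1 to 28.5 CPM in controls (log2 fold change 0.81, SE 0.23, edgeR adjusted p = 0.0666). Tob2 encodes an antiproliferative protein of the BTG family and, like Tcf12 and Sostdc1, was named after its values had been seen.

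**Figure D5:**
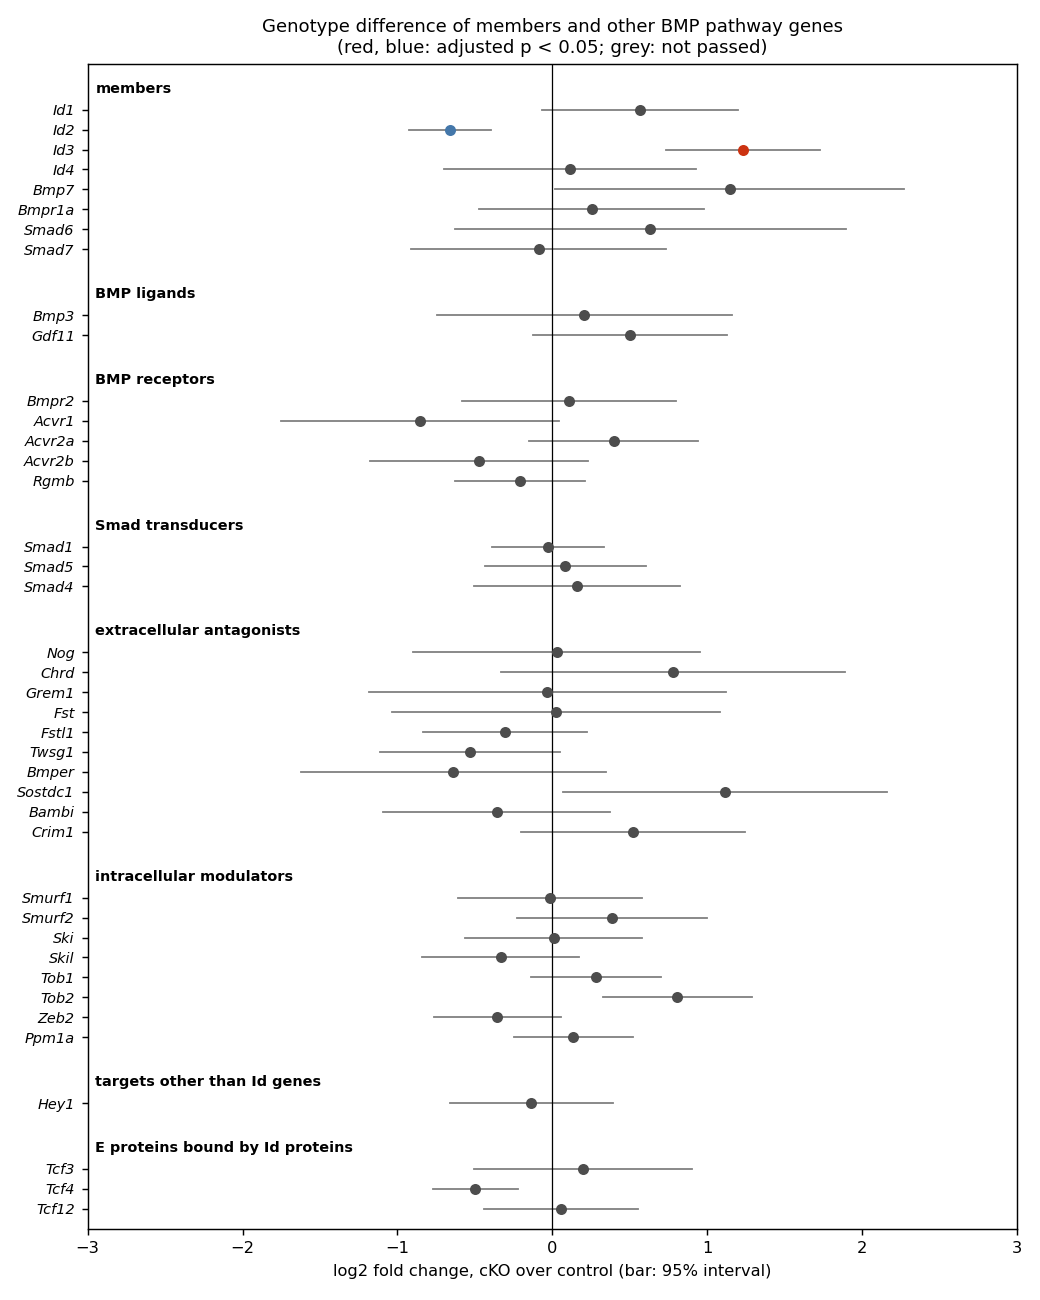
Log2 fold change, cKO over control (horizontal axis), with the 95% interval as a bar, for the 8 tested genes named members in the plot and the 32 other tested pathway genes, grouped by role. Id2 (blue, -0.66) and Id3 (red, 1.23) are the genes with an adjusted p under 0.05, and the bars of most other genes cross 0.

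Cell type markers in the same libraries were set beside the Id genes. Projection neuron markers summed to 4233 to 6106 CPM in cKO and 6825 to 9450 CPM in controls (exact permutation test, two-sided, p = 0.0167, the smallest these groups can give, adjusted over 12 lists p = 0.1), and among them the neuronal factors Neurod2 (log2 fold change -0.75) and Neurod6 (-0.98) were lower. Like Id2, this sum was lower in every cKO library than in any control. Among the cKO libraries the order was the reverse. Replicate 1 had the highest sum (6106 CPM) and the least Id2 (659 CPM), and replicate 2 the lowest sum (4233 CPM) and the most Id2 (821 CPM). The part of this sum in the Id2 result was not tested. Pericyte markers summed to 8.43 to 15.0 CPM in cKO and 3.91 to 8.27 CPM in controls (exact permutation test, p = 0.0167, adjusted p = 0.1). None of the 6 reached the filter, and Abcc9 was at 0. The largest part of this sum in both groups was Notch3. By mean CPM, Notch3, Rgs5 and Cspg4 were higher in cKO, and Pdgfrb and Kcnj8 were lower. Cspg4 is also one of the oligodendrocyte precursor markers. Meningeal fibroblast markers summed to 23.9 to 44.1 CPM in cKO and 9.90 to 30.0 CPM in controls, with overlap and with Foxc2 at 0 (exact permutation test, p = 0.0833, adjusted p = 0.25). Most of this sum was Dcn, with 28.1 of a mean of 32.0 CPM in cKO and 14.4 of 17.4 CPM in controls. Among the rest, all with few reads, Col1a1 and Col1a2 were higher in cKO and Lum, Foxc1 and Slc6a13 lower. Cortical hem and choroid plexus markers, whose cells are a source of BMPs, ran from 8.67 to 67.5 CPM in cKO and from 0.648 to 39.6 CPM in controls, with overlap and with Kcne2 at 0 (exact permutation test, p = 0.0833, adjusted p = 0.25). In cKO this sum was mostly Ttr, with 30.9 of a mean of 40.8 CPM (5.65 of 13.3 CPM in controls). Wnt8b was lower in cKO, at 0.93 against 2.25 CPM. The sort kept cells with a MADM label made by Emx1 Cre, a gate that should leave out pericytes and meningeal fibroblasts, which do not come from the Emx1+ lineage. The part of these 3 lists in the Id3 result was not tested.

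In the other lists the ranges overlapped. Endothelial markers summed to 5.52 to 32.3 CPM in cKO and to 2.88 to 12.2 CPM in controls. Replicate 2 of cKO, which had the most Id1 and Id3 of the 10 libraries, also had the highest sums of radial glia (3171 CPM), astrocyte (312 CPM), endothelial (32.3 CPM), pericyte (15.0 CPM) and meningeal fibroblast markers (44.1 CPM) and the lowest of projection neuron (4233 CPM) and interneuron markers (43.3 CPM). Microglia markers reached 33.1 CPM in cKO replicate 3 and at most 6.11 CPM in controls. Astrocyte markers (241 to 312 against 188 to 302 CPM) included Slc1a2, a glutamate transporter also found in radial glia, which rose by 1.38 on the log2 scale. Intermediate progenitor (640 to 775 against 423 to 1019 CPM), interneuron (43.3 to 164 against 64.8 to 270 CPM), oligodendrocyte precursor (7.88 to 28.3 against 0 to 84.2 CPM) and red blood cell markers (20.4 to 2301 against 0.36 to 1817 CPM) complete the 12 lists, and among interneuron markers Dlx2 was higher and Npy lower. The lower interneuron sum in cKO came from Npy alone (mean 7.52 against 88.5 CPM). The log2 fold changes of the other interneuron markers were above 0, and the median of all 8 was 1.03.

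The genes whose pattern was most like that of each Id gene were found by Pearson's r of log2 CPM over the 10 libraries. Each is the best of 11551 genes, so r is given as a description. The 2 genes most like Id3 were Igfbp5 (r = 0.967, rho = 0.964), a secreted IGF-binding protein, and Ccnd2 (r = 0.949, rho = 0.927), the cyclin D2 gene of cycling progenitors. Within the 7 controls their r with Id3 was 0.885 and 0.820, and both were higher in cKO, by 1.84 and 0.93 on the log2 scale. The pattern of Id2 was followed most closely by Ss18l1 (r = 0.967, rho = 0.915, 0.766 within controls), a subunit of neuronal chromatin remodelling complexes, and Hs6st2 (r = 0.967, rho = 0.903, 0.780 within controls), a heparan sulfate sulfotransferase. They were lower in cKO by log2 fold changes of -1.22 and -2.06. For Id1 the closest genes were Ice1 (r = 0.955) and Trim33 (r = 0.942), and for Id4 Fancb (r = 0.948) and Exosc7 (r = 0.886), none of which passed the test between genotypes. Over all 10 libraries r also holds the difference between genotypes, which the r within controls leaves out.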

How the data were processed

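The authors merged technical replicates (samtools), converted them to fastq (bedtools 2.26.0) and aligned them with STAR 2.5.0c to GRCm38 with GENCODE M16, keeping reads with 1 alignment. They deposited raw read counts per gene, not normalized. The Smart-Seq2 libraries carry no strand information, so the count that ignores strand was used, which drops reads shared by overlapping genes. No molecular identifiers were described, so limits drawn from counts cover counting error only. Symbols and positions came from GENCODE M21 on GRCm38, which matched 50604 genes exactly, 2670 without version and 105 not at all.

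Genes that averaged 10 reads or more per library were tested with edgeR 4.0.16 (TMM, quasi-likelihood F test, genotype alone) in R 4.3.3, with Benjamini-Hochberg adjustment over 11551 genes. Intervals are 95%. Single values were tested by exact permutation of the genotype labels (two-sided, 120 arrangements). Alternatives included DESeq2 1.42.0, limma-voom (limma 3.58.1), other scalings and filters, and each library left out. The fit was tested on simulated data. Levels per length are CPM per kb of the union of exons, and likeness used log2 CPM with a prior count of 2. Figures used matplotlib 3.10.9.

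The genes and lists were chosen with earlier results of these data known. Named were the 10 genes, Cdkn1c, up to 2 tested genes with the most reads per pathway list, called genes, leading markers and the 2 genes most like each Id gene. Protein sequences were not used here, and some marker results are not reported here.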

Additional observations from a re-analysis of the deposited data

Results flagged for a closer look

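A library stood apart from the other 6 controls, by the ratio of its gap to the group's range, in 5 of 37 groups of 7 controls examined. The cutoff for this ratio was 0.568, which flags about 1 in 20 independent groups of normally distributed values. The groups here share the same 7 libraries and hold CPM, so 1 in 20 need not be their chance rate. Smad6 was 7.55 CPM in control replicate 6, with the next library at 3.89 CPM. The same library had the highest Tcf3, at 106 CPM with the next at 61.3 CPM. Gdf11 reached 25.3 CPM in control replicate 3 and 16.9 CPM in the next library. Hey1 was lowest in control replicate 7, at 21.7 CPM, where the nearest library had 31.4 CPM. The oligodendrocyte precursor markers summed to 84.2 CPM in control replicate 1 and to at most 14.6 CPM in the other controls. None of these belongs to Id2 or Id3.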

How the results depend on the processing

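Id3 was called under every alternative that gave a p (the values within the 2 sets of libraries have none), with adjusted p from 1.69e-07 (no filter on low counts) to 0.0340 (without cKO replicate 2) and log2 fold changes of 0.98 to 1.35 when single libraries were left out. Id2 ran from -0.74 to -0.58 with single libraries left out and was called under each alternative with a p except the replicate block (-0.74, adjusted p = 0.104), so that with the block 1 of the 10 genes was called, and 0 were called lower. The labels do not say whether equal replicate numbers pair embryos. Same-numbered libraries deviated from their group means with r of 0.04, -0.10 and -0.21, and the best-matching controls were 6, 4 and 7. These values cannot show whether a litter or a sort was shared. Genes called over all genes were 364, with 275 to 420 (191 to 274 higher, 82 to 146 lower) when single libraries were left out. They were 961 with no filter on low counts (701 higher, 260 lower), 206 with at least 10 reads in every library (134 higher) and 213 with the block (141 higher), and DESeq2 called 210 lower. Of the other pathway genes, DESeq2 called 2 (Tob2, Tcf4), no filter 2 (Gdf5, Tcf4), and robust dispersion, the share of reads outside genes as covariate, and leaving out control replicate 1 or 6 each called 1 (Tcf4), a range of 0 to 1 over single libraries left out. Genes that did not pass changed sign with single libraries: Id4 ran from -0.17 to 0.42 (-0.01 without control replicate 1), Bmpr1a from -0.58 to 0.65, Smad6 from -1.29 to 1.12 and Smad7 from -0.51 to 0.27 (0.02 without control replicate 5). Bmpr1a was -0.0028 with the block and Smad6 -0.068 with limma-voom. Within the libraries with few and with many reads outside genes, respectively, the difference of mean log2 CPM, which is not the edgeR fold change and can differ from it in sign, was -0.52 and 0.23 for Smad6, -1.32 and 0.15 for Smad7, -0.083 and -0.056 for Bmpr1a (mean CPM in the second set 46.8 in cKO and 39.3 in controls), 0.62 and -0.10 for Id4, 0.53 and 1.801 for Bmp7, and 0.67 and 0.20 for Id1. Id1 ran from 0.17 to 0.78, Bmp7 from 0.93 to 1.36 and Cdkn1c from -4.07 to -3.36. The CPM difference ran from 0 (without cKO replicate 3) to 1.06 for Bmp4 and from 0.020 to 2.89 for Msx1. Bmp7, Smad6 and Smad7 gave no value where 10 reads in every library were required. The cause of each change was not tested.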
